A study of Mus musculus with 13 samples.

Results

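The hemisphere opposite a controlled cortical impact was compared with the same hemisphere of sham-operated mice, across all genes of the count table. The comparison used 7 of the 13 libraries in the series, chosen by their labelled side and surgery, and no measured value entered the choice. The 4 CCI contralateral libraries came from animals 1, 2, 3 and 5, and the 3 sham contralateral libraries from animals 4, 6 and 8. All mice were male wild-type C57BL/6 aged 12 to 16 weeks, and both operations preceded collection by 4 days. Messenger RNA of perfused whole hemispheres was measured by bulk RNA sequencing of polyadenylated RNA. The ipsilateral hemispheres of 6 of these animals (4 CCI and 2 sham) are set beside the contralateral values where the same genes are described.

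Controlled cortical impact (CCI) injures the brain by driving a piston into the exposed cortex on one side. Injury makes astrocytes raise intermediate filament and acute-phase genes, and makes microglia, the resident macrophages of the brain, raise genes of lysosomes, antigen presentation and complement. Neurons of the hemispheres are joined through the corpus callosum and other commissures, so tissue far from the impact can receive degenerating axons as well as secreted signals. The series as a whole asks about macrophages that enter through the chemokine receptor Ccr2, and about interferon signalling in microglia. In whole tissue, more cells of a type and more RNA per cell cannot be told apart.

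Total counts ran from 5604856 to 7444568 in the 4 CCI libraries and from 6578614 to 6855548 in the 3 sham libraries. Mitochondrially encoded genes held 7.93% to 8.35% of counts in CCI and 8.20% to 8.84% in sham libraries. The first principal component of the 500 most variable genes held 22.4% of the variance, and the groups overlapped on it. CCI libraries lay at -15.8, -7.76, -3.64 and 6.33, against 11.5, 6.71 and 2.64 for sham. Markers of neurons, astrocytes and oligodendrocytes were present in every library, as the tissue label implies, for example Snap25 at 2492 to 2627 counts scaled to library size (CPM) in CCI and 2464 to 2759 CPM in sham libraries. In 3 stretches of the genome, 2 on chromosome 1 and 1 on chromosome 2, every protein-coding gene was listed at 0 in all 13 libraries. They hold 361 such genes, among them Vim, Glul and Gad2, so no value is given for these genes.

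A small set of genes separated CCI from sham in the contralateral hemisphere, and most of it was higher after CCI. Of 14088 genes tested, 45 were called at an edgeR adjusted p under 0.05, which is 0.319% of them. Of these, 37 rose (0.263%) and 8 fell (0.0568%). In all 45, every CCI library lay on one side of every sham library. Such separation was seen upward in 4.04% and downward in 3.36% of all genes tested, so it is weak evidence taken alone. The genes that rose had log2 fold changes of 0.30 to 5.05 with a median of 0.83, and 12 of them were at least 2-fold higher. The genes that fell had log2 fold changes of -2.51 to -0.28, and 2 of them were at least 2-fold lower. The median over all genes tested was -0.00 on the log2 scale.

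**Figure D1:**
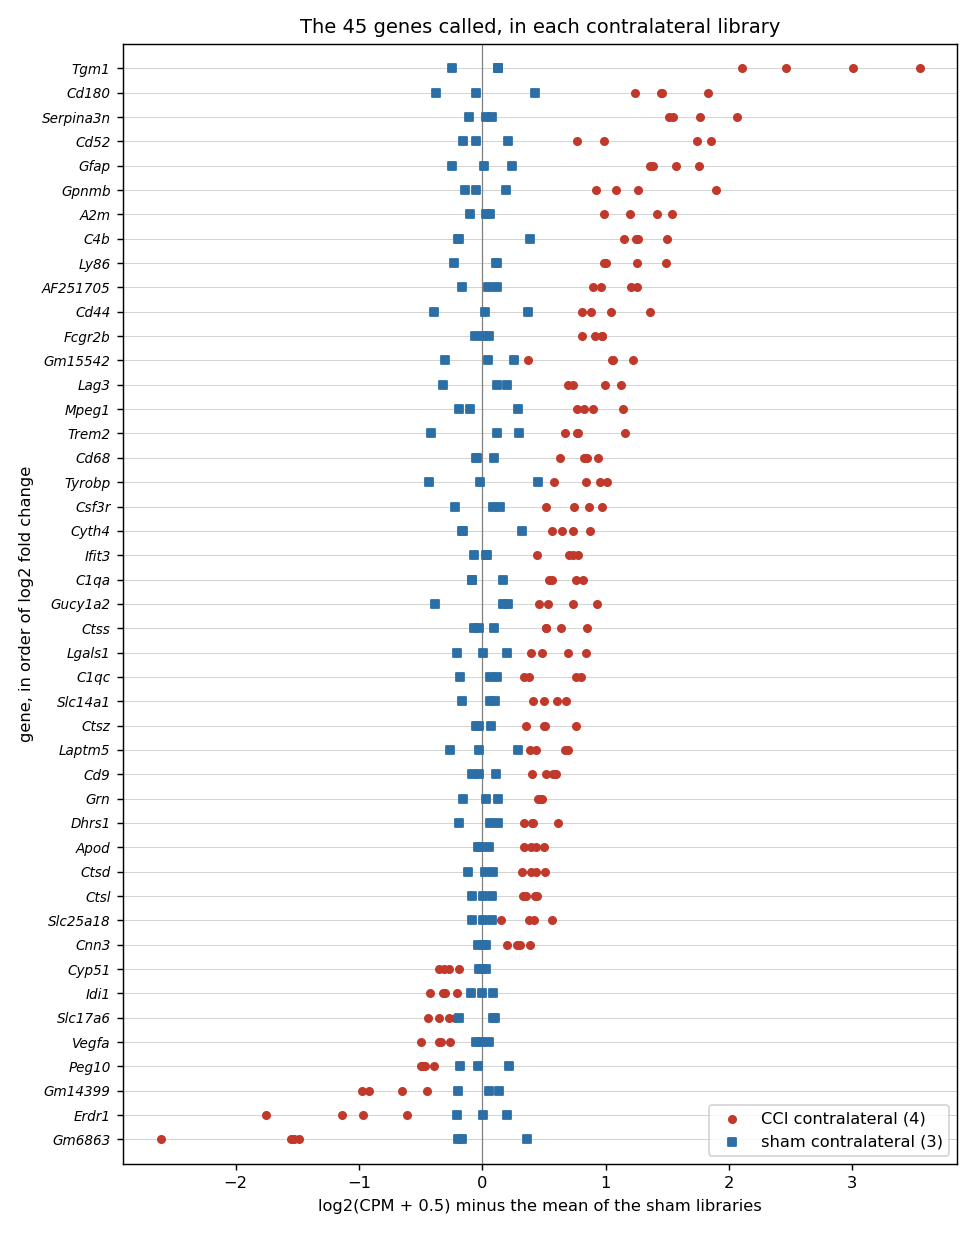
Level of each of the 45 called genes in each contralateral library, as log2(CPM + 0.5) minus the mean of the 3 sham libraries; red circles are the 4 CCI libraries and blue squares the 3 sham libraries. The 37 genes that rose have all red points right of the blue ones, and the 8 that fell have all red points to the left.

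Which genes are called depends on the libraries in the fit. Leaving out 1 library gave 20 to 58 calls, with 20 without sham animal 4, 28 without CCI animal 3 and 29 without sham animal 6. Over these 7 fits, 14 genes kept their call each time: A2m, Serpina3n, Ly86, Ctss, Apod, Tgm1, Mpeg1, Ctsd, C1qa, Cd9, Grn, Ctsl, Gpnmb and Ctsz. The other 31 lost it without at least 1 library, and those losses are given below for most of the genes described. A single fit of all 13 libraries, in which lesioned tissue enters the estimate of spread, called 14 genes in place of 45, and 12 of these were higher. They were A2m, Serpina3n, Ly86, Cd180, Ctsl, Cd68, C1qa, Fcgr2b, Cd52, Apod, Lag3 and C4b, with Peg10 and Vegfa lower. The other 31 had edgeR adjusted p values in that fit from 0.0508 for Gm14399 to 0.771 for Ifit3. The genes kept in both respects numbered 6, namely A2m, Serpina3n, Ly86, C1qa, Ctsl and Apod.

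Several genes of reactive astrocytes rose. Of 16 members tested, 4 rose and none fell, with a list median of 0.20 on the log2 scale. Serpina3n, an acute-phase protease inhibitor secreted by reactive astrocytes (chromosome 12, 104406729 to 104414329, GRCm38), had 60.4, 51.8, 74.6 and 50.8 CPM in CCI libraries, against 18.4, 16.2 and 17.9 CPM in sham libraries. All 4 CCI values lay far above the highest sham value, and the change was 3.41-fold (log2 change 1.77, SE 0.14, adjusted p = 2.23e-05 by edgeR). A2m, the broad protease trap alpha-2-macroglobulin (chromosome 6, 121635376 to 121679227), had 20.2, 13.6, 18.5 and 15.8 CPM in CCI libraries, against 6.78, 6.15 and 6.95 CPM in sham libraries. The sham values lay close together and the CCI values were spread more, but the groups did not overlap (log2 change 1.36, SE 0.16, adjusted p = 2.23e-05 by edgeR).

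Gfap, the intermediate filament protein by which reactive astrocytes are usually recognised (chromosome 11, 102887336 to 102900912), was the most abundant of the 4. It had 485, 492, 640 and 562 CPM in CCI libraries, against 190, 159 and 223 CPM in sham libraries. The lowest CCI value was well above the highest sham value, and the fold was 2.86 (log2 change 1.51, SE 0.16, adjusted p = 0.0412 by edgeR). Its adjusted p was high for the size of the change, and the call ended without CCI animal 1, 2 or 5 (adjusted p = 0.0798, 0.0655 and 0.103) and without sham animal 4 (0.266). In the 13-library fit it was 0.105. These are edgeR values, and other methods gave lower ones. On the 7 libraries the adjusted p was 2.93e-17 by DESeq2 and 2.59e-07 by limma voom. Over 13 libraries it was 0.000434 by limma voom with the animal as a random effect. Cd44, a receptor for hyaluronan that marks reactive astrocytes and other activated cells, rose 2.15-fold (log2 change 1.11, SE 0.23, adjusted p = 0.0193 by edgeR). It lost the call without CCI animal 3 and without sham animals 6 or 8 (0.118, 0.175 and 0.0890).

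The other reactive astrocyte genes did not pass the threshold. Of the 16 tested, 13 had a positive log2 fold change, and values ran from -0.50 to 1.85, the latter that of Timp1. The unadjusted edgeR p was under 0.05 for 6 higher members, the called ones included, and for 1 lower member. Timp1, an inhibitor of matrix metalloproteinases, had 14, 13, 18 and 10 counts in CCI libraries, against 5, 1 and 5 in sham libraries (log2 fold change 1.85, edgeR adjusted p = 0.0786). Among 12 homeostatic astrocyte genes tested, such as Aqp4, Slc1a2 and Aldh1l1, none was called and the median was 0.01. Their summed level was 5041 to 5117 CPM in CCI libraries, within the 4821 to 5690 CPM of sham libraries. Slc14a1, a urea transporter of astrocytes outside these lists, rose with a log2 fold change of 0.57 (SE 0.12, adjusted p = 0.0314 by edgeR). That call was lost without CCI animals 2 or 3 and without each sham animal (adjusted p of 0.0657 to 0.193).

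**Figure D2:**
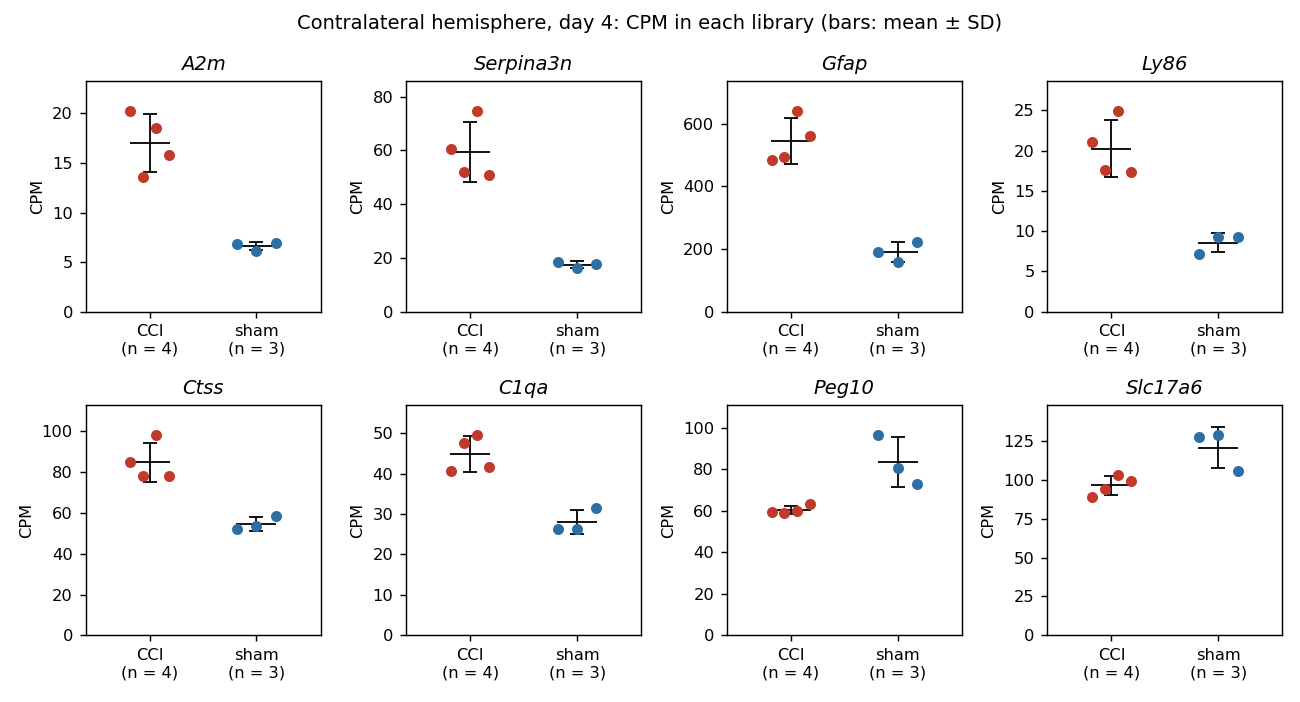
CPM in each contralateral library for 8 called genes, with CCI (n = 4) left of sham (n = 3); each point is 1 animal and the bars give the mean ± SD. A2m, Serpina3n, Gfap, Ly86, Ctss and C1qa are higher in all CCI libraries, and Peg10 and Slc17a6 are lower in all of them, Slc17a6 by a narrow margin.

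Several genes of microglia and other macrophages rose, some of them outside the gene lists. Ly86, the secreted partner protein MD-1 of the Toll-like receptor homologue Cd180 (chromosome 13, 37345208 to 37419036), had 21.1, 17.6, 24.9 and 17.4 CPM in CCI libraries, against 7.23, 9.23 and 9.31 CPM in sham libraries. The CCI values were all above the sham values (log2 change 1.25, SE 0.15, adjusted p = 2.23e-05 by edgeR). Cd180 itself (chromosome 13, 102693558 to 102739629) had 4.40, 4.44, 5.89 and 3.73 CPM in CCI libraries, against 0.885, 1.23 and 1.92 CPM in sham libraries. It rose 3.42-fold (log2 change 1.78, SE 0.30, adjusted p = 0.00218 by edgeR), so that both partners of the complex were higher. Without sham animal 4 its adjusted p was 0.0505. Mpeg1, the pore-forming macrophage protein perforin-2, averaged 50.1 ± 6.01 CPM in CCI and 26.6 ± 4.95 CPM in sham libraries (SD, n = 4 and 3, log2 change 0.92, SE 0.11, adjusted p = 9.83e-05 by edgeR).

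Of 14 activated microglia genes tested, 5 rose and none fell, and 13 had a positive log2 fold change, with a median of 0.37. Gpnmb, a glycoprotein of lipid-laden phagocytes, had 6.45, 11.7, 7.37 and 5.68 CPM in CCI libraries, against 3.24, 2.46 and 2.66 CPM in sham libraries (log2 change 1.49, SE 0.25, adjusted p = 0.00212 by edgeR). Cd68, a lysosomal membrane protein of phagocytes, had 9.67, 11.1, 12.1 and 11.4 CPM in CCI libraries, against 5.90, 5.85 and 6.50 CPM in sham libraries. Its groups were narrow and apart (log2 change 0.86, SE 0.16, adjusted p = 0.00689 by edgeR), and the call ended without sham animals 4 or 6 (0.0737 and 0.0541). Cd9, a tetraspanin, rose by a log2 fold change of 0.53 (SE 0.08, adjusted p = 0.000405 by edgeR). Tyrobp, the signalling adaptor of Trem2, rose with a log2 fold change of 0.83 (SE 0.16, adjusted p = 0.0225 by edgeR), a call lost without CCI animals 1, 3 or 5 and without sham animals 4 or 6 (adjusted p of 0.0565 to 0.272). Cst7, a cystatin of activated microglia, was below the filter on low counts, with 6, 4, 4 and 5 counts in CCI and 0 in every sham library, at least 4.73-fold higher against 3 counts over the sham group.

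All 16 homeostatic microglia genes tested had a positive log2 fold change, with a median of 0.40, but 1 passed the threshold. That gene was Trem2, a lipid receptor of microglia, with 16.3, 17.5, 22.9 and 17.4 CPM in CCI libraries, against 7.37, 10.9 and 12.4 CPM in sham libraries (log2 change 0.86, SE 0.16, adjusted p = 0.00689 by edgeR). It lost the call without sham animals 4 or 6 (0.114 and 0.0511). Of the 16, 11 had an unadjusted edgeR p under 0.05, and in 6 the groups did not overlap. Over all genes tested, 6.98% had such a p in either direction, and 4.04% had all CCI libraries above all sham libraries. Fcrls, a microglial surface receptor, had 33.1, 29.4, 37.6 and 30.0 CPM in CCI libraries, against 17.1, 15.7 and 25.9 CPM in sham libraries, without overlap (log2 change 0.74, SE 0.15, adjusted p = 0.0557 by edgeR). P2ry12, a purinergic receptor, averaged 35.7 ± 3.10 CPM in CCI and 29.2 ± 6.53 CPM in sham libraries, and Tmem119 18.2 ± 1.41 and 16.1 ± 3.53 CPM (SD, n = 4 and 3, edgeR adjusted p = 0.574 and 0.867). Cx3cr1, the fractalkine receptor, overlapped between groups, at 43.6 to 56.9 CPM in CCI and 30.5 to 55.9 CPM in sham libraries (edgeR adjusted p = 0.902). The summed level of the list was 521 to 645 CPM in CCI and 364 to 539 CPM in sham libraries, so that the groups overlapped there too.

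Most markers of blood-derived cells were under the filter on low counts, and their part in the increases was not tested. Of 15 monocyte and macrophage genes, 4 passed the filter and none was called. Ccr2 had 4, 7, 7 and 11 counts in CCI libraries, against 4, 4 and 4 in sham libraries. Ly6c2, another marker of inflammatory monocytes, had 0, 1, 4 and 2 counts in CCI and 2, 1 and 1 in sham libraries. Other genes also had few counts. The macrophage gene Ms4a7 had 16 counts over the CCI libraries and 2 over the sham libraries (ratio 5.98, exact 95% interval 1.41 to 53.6, counting error only). Plac8 had 3 and 1 counts and Ccr1 3 and 4, while Mrc1 and Vim lie in the stretches listed at 0. The scavenger receptor Msr1, which stood in the activated microglia list, had 18 and 3 counts (ratio 4.48, 1.31 to 23.8, counting error only). Lyz2, the lysozyme of myeloid cells, was higher in value but not called here, at 15.5, 26.8, 22.0 and 12.6 CPM in CCI and 10.5, 6.77 and 11.1 CPM in sham libraries (log2 change 1.04, SE 0.32, adjusted p = 0.511 by edgeR). Its groups did not overlap, and the authors' deposited DESeq2 table has it higher (log2 estimate 1.25, DESeq2 adjusted p there 0.0124). The summed level of the monocyte and macrophage list was 82.2 to 96.0 CPM in CCI and 70.0 to 95.8 CPM in sham libraries. Cd3e, which defines T cells, was at 0 in all 7 libraries, and 1 of 12 lymphocyte genes, Cd4, passed the filter and was not called (log2 fold change -0.01). Of 8 neutrophil genes 2 passed, and Csf3r, the receptor for granulocyte colony-stimulating factor that microglia also carry, rose (log2 change 0.83, SE 0.19, adjusted p = 0.0415 by edgeR), a call that leaving out any 1 library except CCI animal 2 ended (adjusted p of 0.0756 to 0.422). The neutrophil genes S100a8 and S100a9 had 29 and 39 counts in CCI animal 3, against 2 to 4 and 1 to 4 counts in the other CCI animals and up to 12 and 15 in sham animals.

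Lysosomal and phagocytic genes rose by small and tight margins. Of 19 tested, 6 rose and none fell, 18 had a positive log2 fold change and the median was 0.45, against -0.00 over all genes. Ctss, the cysteine protease cathepsin S of microglial lysosomes (chromosome 3, 95526786 to 95556403), had 84.8, 77.9, 98.2 and 78.0 CPM in CCI libraries, against 51.9, 53.4 and 58.2 CPM in sham libraries (log2 change 0.64, SE 0.08, adjusted p = 4.4e-05 by edgeR). Grn, which encodes the lysosomal regulator progranulin, was almost constant within the CCI group at 65.2, 64.0, 65.6 and 65.0 CPM, against 51.2, 41.8 and 47.9 CPM in sham libraries (log2 change 0.47, SE 0.08, adjusted p = 0.00161 by edgeR). The proteases Ctsl and Ctsz rose with log2 fold changes of 0.39 ± 0.06 and 0.55 ± 0.09 SE (edgeR adjusted p = 0.00175 and 0.00222). Ctsd, the aspartic protease cathepsin D, which stood in the activated microglia list, had a log2 fold change of 0.42 (SE 0.06, adjusted p = 0.000126 by edgeR). In the 13-library fit Ctsl kept its call (edgeR adjusted p = 0.0418). Ctss, Grn, Ctsz and Ctsd did not (edgeR adjusted p = 0.404, 0.379, 0.333 and 0.350).

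Fcgr2b, the inhibitory receptor for immunoglobulin G, had 6.30, 6.80, 7.10 and 7.10 CPM in CCI libraries, against 3.54, 3.23 and 3.40 CPM in sham libraries. It doubled with little spread in either group (2.01-fold, edgeR adjusted p = 0.0154), and lost the call without CCI animal 3 (0.0574) and without any 1 sham animal (0.0618 to 0.0972). Laptm5, a lysosomal membrane protein of blood and immune cells, rose with a log2 fold change of 0.54 (SE 0.11, adjusted p = 0.0412 by edgeR), a call lost without CCI animals 3 or 5 and sham animals 4 or 6 (adjusted p of 0.0737 to 0.387). The general lysosomal membrane proteins Lamp1 and Lamp2 had log2 fold changes of 0.08 and 0.10 and were not called (edgeR adjusted p = 0.839 and 0.805).

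Complement genes had the highest median of the lists with more than 10 members tested, 0.54 on the log2 scale over 13 genes, and 3 of them rose. C4b, a complement component made by astrocytes and other glia (chromosome 17, 34728380 to 34743882), had 69.6, 74.3, 88.5 and 75.3 CPM in CCI libraries, against 27.0, 27.2 and 40.8 CPM in sham libraries. The groups were far apart although sham animal 8 was above the other shams (log2 change 1.28, SE 0.15, adjusted p = 0.00533 by edgeR), and without CCI animal 5 the adjusted p was 0.0557. C4b has a near-identical neighbour, C4a, so its share of reads is less certain. C1qa, a chain of the initiator protein C1q made by microglia (chromosome 4, 136895917 to 136898803), had 40.7, 47.6, 49.6 and 41.6 CPM in CCI libraries, against 26.3, 26.3 and 31.5 CPM in sham libraries (log2 change 0.68, SE 0.10, adjusted p = 0.000126 by edgeR).

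C1qc, another chain of the same protein, rose with a log2 fold change of 0.58 (SE 0.12, adjusted p = 0.0477 by edgeR), a call lost without CCI animal 3 (0.0950) and without any 1 sham animal (0.114 to 0.235). C1qb, the remaining chain, had a log2 fold change of 0.73 and was not called (edgeR adjusted p = 0.192). C3, the component at which the complement pathways meet, was low and variable at 1.17, 3.47, 4.82 and 2.31 CPM in CCI libraries, against 1.33, 1.38 and 0.591 CPM in sham libraries. Its groups overlapped through CCI animal 1 (log2 change 1.43, SE 0.43, adjusted p = 0.295 by edgeR).

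Interferon-stimulated genes moved by little and 1 of 31 tested passed. Ifit3, which restrains viral RNA and is induced by type I interferon (chromosome 19, 34583531 to 34588731), had 15.7, 12.4, 15.3 and 14.9 CPM in CCI libraries, against 8.55, 9.23 and 9.16 CPM in sham libraries (1.62-fold, log2 change 0.69, SE 0.14, adjusted p = 0.0186 by edgeR). Its call ended without CCI animals 1 or 3 (0.0565 and 0.0729) and without any 1 sham animal (0.0618 to 0.153), and its near-identical neighbour Ifit3b (log2 fold change 0.59, adjusted p = 0.471) can share its reads. The list had a positive log2 fold change in 26 of 31 genes and a median of 0.22. In 11 of the 31 the unadjusted edgeR p was under 0.05, all higher, against 6.98% of all genes tested in either direction. In 7 the CCI libraries all lay above the sham libraries, against 4.04% of all genes. Its summed level was 286 to 290 CPM in CCI libraries, all above the 242 to 249 CPM of sham libraries. Irf7, a transcription factor that amplifies the interferon response, averaged 3.00 ± 0.667 CPM in CCI and 1.49 ± 0.422 CPM in sham libraries (SD, n = 4 and 3, edgeR adjusted p = 0.341). Isg15, a ubiquitin-like protein among the most inducible of these genes, was at 0.938 to 2.84 CPM in CCI and 1.77 to 2.36 CPM in sham libraries (log2 fold change -0.03, edgeR adjusted p = 0.999).

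The promoter windows of a few of the genes that rose show short motifs known for interferon and macrophage factors. RefSeq windows of 250 bases before to 50 bases after the most upstream listed start (GRCm38.p6) were found for 27 of the 37 genes that rose and 4 of the 8 that fell. Of the 27, 3 held the interferon-response element, searched as GAAA repeated after 2 free bases (11.1%), 3 the PU.1 site GAGGAAGT (11.1%) and 2 the STAT site TTCNNNGAA (7.41%), on either strand. Of the 4 windows of genes that fell, 1, that of Vegfa, held the interferon-response element (25.0%), and none held the others. Among all tested genes with a window the shares were 2.81%, 2.61% and 6.78%. With 1 to 3 genes behind each share, these are descriptions and not enrichments. The windows of Ctss, C1qc and Ifit3 are printed 5′ to 3′ on the strand of the gene because they carry the interferon or PU.1 matches in genes described above, with the match, in either orientation, in capitals. The windows were chosen after the values were seen. Ctss (chr3:95526536-95526835, plus strand) holds a PU.1 match and an interferon-response match close to the start, C1qc (chr4:136892865-136893164, minus strand) a PU.1 match, and Ifit3 (chr19:34583279-34583578, plus strand) a pair of interferon-response matches.
Ctss: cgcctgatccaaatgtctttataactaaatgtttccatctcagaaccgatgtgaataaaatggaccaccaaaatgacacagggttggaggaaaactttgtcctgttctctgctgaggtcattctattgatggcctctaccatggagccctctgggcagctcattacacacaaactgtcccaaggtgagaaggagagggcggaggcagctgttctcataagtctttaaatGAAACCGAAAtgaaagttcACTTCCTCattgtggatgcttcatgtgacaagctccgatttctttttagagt
C1qc: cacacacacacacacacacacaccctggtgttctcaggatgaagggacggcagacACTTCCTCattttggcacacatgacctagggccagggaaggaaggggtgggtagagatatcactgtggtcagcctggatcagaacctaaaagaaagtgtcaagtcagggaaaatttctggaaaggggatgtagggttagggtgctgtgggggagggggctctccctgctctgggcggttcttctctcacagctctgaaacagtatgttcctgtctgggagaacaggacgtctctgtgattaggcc
Ifit3: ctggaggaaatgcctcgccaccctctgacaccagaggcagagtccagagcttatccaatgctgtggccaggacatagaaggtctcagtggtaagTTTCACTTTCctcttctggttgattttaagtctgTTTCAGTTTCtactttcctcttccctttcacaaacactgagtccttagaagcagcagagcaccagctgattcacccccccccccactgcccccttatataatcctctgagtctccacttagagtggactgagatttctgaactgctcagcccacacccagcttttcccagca

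Other inflammatory lists were not called in any member. Of 11 major histocompatibility class I genes tested none passed, with a median of 0.21. B2m, the light chain of these molecules, averaged 93.4 ± 6.50 CPM in CCI and 78.6 ± 1.44 CPM in sham libraries (SD, n = 4 and 3) without overlap (edgeR adjusted p = 0.163). Of 6 class II genes none passed, with a median of 0.15, and Cd74, the invariant chain, was at 3.73 to 5.49 CPM in CCI and 3.23 to 3.99 CPM in sham libraries (edgeR adjusted p = 0.873). Of 10 inflammatory cytokine and receptor genes none passed, with a median of 0.25. Ccl2, the ligand of Ccr2, had 0, 3, 1 and 3 counts in CCI and 0, 2 and 0 in sham libraries, under the filter. The interferon-induced chemokine Cxcl10 had 15 counts over the CCI libraries and 2 over the sham libraries (ratio 5.6, exact 95% interval 1.3 to 50.5, counting error only). Of the 12 chemokine genes 3 passed the filter and none was called, with a median of -0.14.

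**Figure D3:**
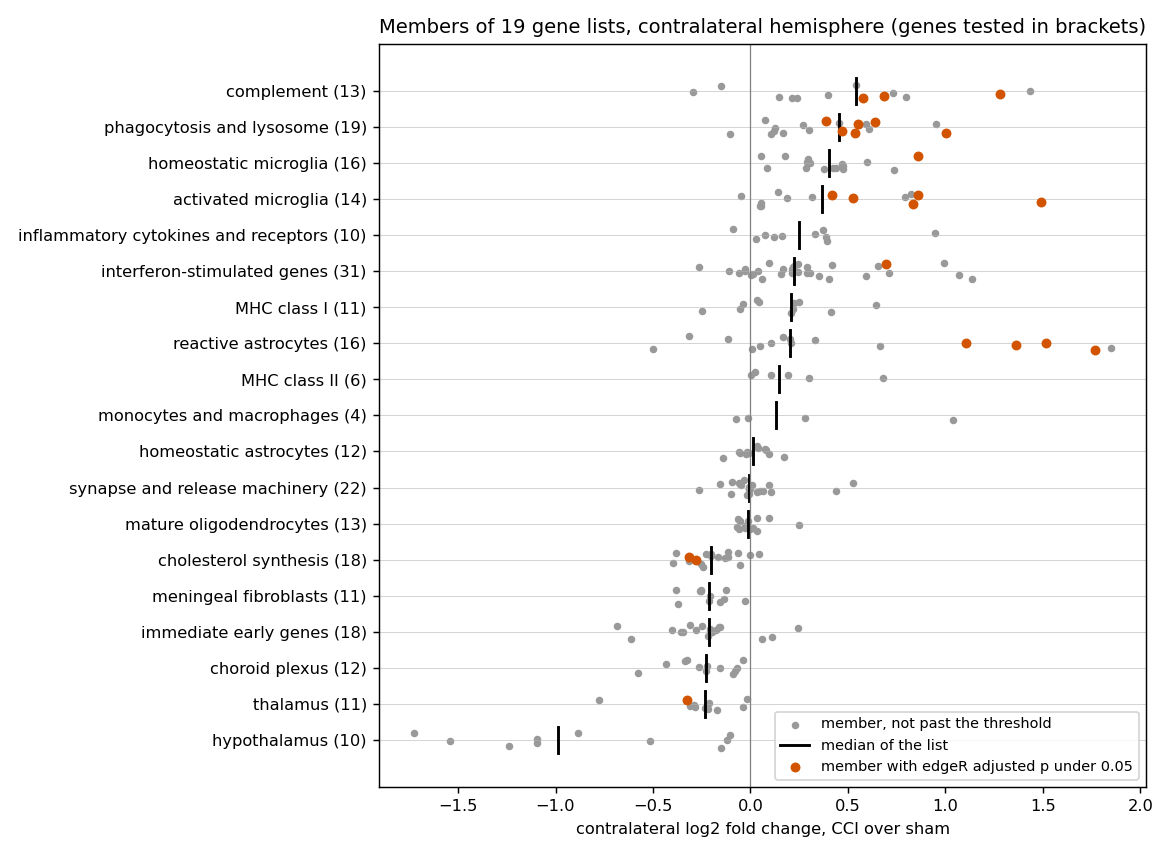
Log2 fold change of CCI over sham, contralateral, for each member of 19 gene lists (genes tested in brackets); grey points did not pass, orange points had an edgeR adjusted p under 0.05, and black bars are list medians. Medians run from 0.54 for complement to -0.99 for hypothalamus, and the called members lie in the glial, complement, lysosomal and interferon lists on the right and in cholesterol synthesis and thalamus on the left.

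Among genes outside these lists, Tgm1 had the largest fold. Tgm1 encodes transglutaminase 1, an enzyme that crosslinks proteins, best known from skin (chromosome 14, 55700009 to 55713926). It had 106 counts over the 4 CCI libraries, against 2 over the 3 sham libraries, a library-size-corrected ratio of 39.6 (exact 95% interval 10.7 to 331, counting error only). Every CCI library was above every sham library, at 2.05, 2.78, 6.43 and 4.26 CPM in CCI and 0.147, 0 and 0.148 CPM in sham libraries (edgeR adjusted p = 9.83e-05). Apod, a lipid carrier made by glia (chromosome 16, 31296192 to 31314808), was abundant and tight, at 258, 247, 240 and 231 CPM in CCI libraries, against 180, 178 and 189 CPM in sham libraries. It rose 1.34-fold (log2 change 0.42, SE 0.06, adjusted p = 9.83e-05 by edgeR).

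Cd52, a surface glycoprotein of leukocytes, and Lag3, an inhibitory immune receptor, rose with log2 fold changes of 1.74 and 0.96 (edgeR adjusted p = 0.0225 and 0.0315). Cd52 lost the call without CCI animal 3 (0.129) and any 1 sham animal (0.0642 to 0.185), and Lag3 without CCI animals 3 or 5 (0.108 and 0.0684) and any 1 sham animal (0.0528 to 0.385). Gucy1a2, a subunit of the nitric oxide receptor guanylate cyclase, had 20.8, 29.0, 21.8 and 25.2 CPM in CCI libraries, against 17.4, 16.9 and 11.4 CPM in sham libraries (edgeR adjusted p = 0.0382). That call ended without any 1 library except CCI animal 1 (adjusted p of 0.0512 to 0.1997). The processed pseudogene Gm15542, which lies within Psmd13 on the same strand and so can share its reads, had a log2 fold change of 0.98 (edgeR adjusted p = 0.0317), lost without CCI animals 3 or 5 or any 1 sham animal (0.0616 to 0.217). Of the 45 called genes, 14 have an annotated gene on the opposite strand and 8 another on the same strand. The same counts were not made over all genes tested, so these describe the called genes only.

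The 8 genes that fell shared no list beyond a pair of cholesterol genes. Peg10, an imprinted gene derived from a retrotransposon (chromosome 6, 4747306 to 4760517), had 59.3, 58.7, 60.0 and 63.2 CPM in CCI libraries, against 96.6, 80.8 and 73.1 CPM in sham libraries. The CCI values were nearly equal and below the spread-out sham values (log2 change -0.47, SE 0.08, adjusted p = 0.00201 by edgeR), and without sham animal 4 the adjusted p was 0.0744. Vegfa, the main growth factor for blood vessels, had 77.7, 82.8, 70.3 and 78.9 CPM in CCI libraries, against 103, 96.1 and 98.9 CPM in sham libraries (log2 change -0.36, SE 0.07, adjusted p = 0.00533 by edgeR). Without sham animal 4 its adjusted p was 0.0950. Of the 11 genes of angiogenesis and hypoxia tested, it was the only one called, and their median was 0.00.

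Idi1 and Cyp51, enzymes of the sterol pathway, fell by 0.31 and 0.28 on the log2 scale (edgeR adjusted p = 0.0331 and 0.0499). Idi1 had 65.9, 76.8, 70.9 and 71.7 CPM in CCI libraries, against 94.2, 88.6 and 83.3 CPM in sham libraries. Cyp51 had 68.1, 70.0, 72.1 and 76.0 CPM in CCI libraries, against 88.5, 86.9 and 85.3 CPM in sham libraries. Neither pair of groups overlapped, but Idi1 lost its call without CCI animals 1 or 3 and sham animals 4 or 6 (0.106 to 0.422), and Cyp51 without any 1 library except CCI animal 5 (0.0934 to 0.361). Of 18 cholesterol synthesis genes tested, 2 were called and 17 had a negative log2 fold change, with a median of -0.20.

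Slc17a6, the vesicular glutamate transporter of thalamic and other subcortical neurons (chromosome 7, 51622006 to 51671119), had 88.6, 94.0, 103 and 99.5 CPM in CCI libraries, against 128, 129 and 106 CPM in sham libraries. The highest CCI value lay just under the lowest sham value (log2 change -0.32, SE 0.07, adjusted p = 0.0331 by edgeR), and the call ended without CCI animals 1 or 2 (0.105 and 0.108) and sham animals 4 or 6 (0.398 and 0.248). Lists of other deep regions differed from each other. All 11 thalamus genes tested, Slc17a6 included, had a negative log2 fold change with a median of -0.23, and their summed level was 492 to 576 CPM in CCI and 599 to 616 CPM in sham libraries. All 10 hypothalamus genes tested were negative with a median of -0.99 and none was called. Without CCI animal 1 that median was -0.61. The summed level of the hypothalamus list overlapped between groups, at 188.3 to 272.6 CPM in CCI and 258.4 to 324.5 CPM in sham libraries. Ipsilaterally its median was 0.59 over 11 genes, and the difference between hemispheres was called for 5. The striatum, hippocampus and midbrain and hindbrain lists had medians of -0.00, 0.01 and 0.26 over 12, 7 and 4 genes, with none called. The hypothalamic peptide genes were nearly missing from CCI animal 1: Oxt had 0, 20, 27 and 26 counts in CCI libraries and 73, 59 and 48 in sham libraries, and Pmch 12, 159, 167 and 140 counts in CCI libraries, against 209, 159 and 138 in sham libraries. The part of tissue sampling in these differences was not tested.

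Erdr1, Gm6863 and Gm14399 complete the genes that fell, with log2 fold changes of -1.10, -2.51 and -0.76 (edgeR adjusted p = 0.00469, 0.00493 and 0.0186). Erdr1 is annotated on chromosome Y, Gm6863 is a processed pseudogene, and Gm14399 is a predicted gene known by its model number. How uniquely their reads were placed was not tested. Gm6863 had 4, 4, 4 and 0 counts in CCI libraries, against 15, 14 and 23 in sham libraries. Erdr1 lost its call without sham animals 4 or 8 (0.0686 and 0.0528), Gm6863 without sham animal 8 (0.0811), and Gm14399 without CCI animal 2 and sham animals 6 or 8 (0.0712 to 0.146).

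**Figure D4:**
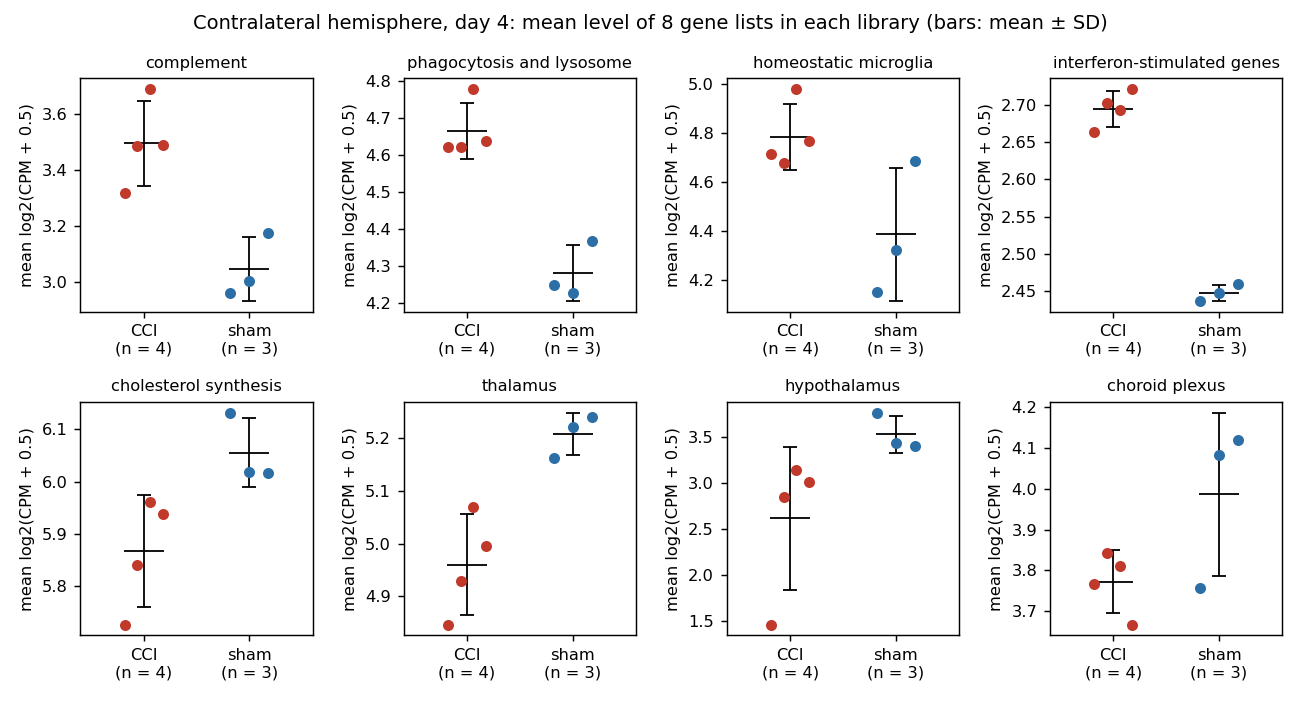
Mean log2(CPM + 0.5) over the tested members of 8 gene lists in each contralateral library, with CCI (n = 4) left of sham (n = 3); points are animals and bars the mean ± SD, and the axes do not start at 0. Complement, lysosomal and interferon-stimulated genes lie higher in all CCI libraries, cholesterol, thalamus and hypothalamus genes lower in all of them, and homeostatic microglia and choroid plexus genes overlap between groups.

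Neuronal and structural lists held no gene that rose, and in the neuronal ones Slc17a6 was the only gene that fell. Of 18 immediate early genes, induced by neuronal firing, none was called, 15 had a negative log2 fold change and the median was -0.21. Egr1, a transcription factor of this class, had 211, 165, 139 and 207 CPM in CCI libraries, against 228, 237 and 221 CPM in sham libraries (log2 change -0.35, SE 0.16, adjusted p = 0.758 by edgeR). Its CCI values were all below the sham values. Fos and Arc had log2 fold changes of -0.16 and -0.18, with overlapping groups (edgeR adjusted p = 0.866 and 0.946). Npas4, Nr4a1 and Egr2, of the same class, had -0.22, -0.25 and -0.61, and none was called (edgeR adjusted p = 0.759, 0.313 and 0.325). The 22 synapse genes and 13 mature oligodendrocyte genes had medians of -0.01 and -0.01 with no gene called, and Mbp, the myelin basic protein, was at 2279 to 3118 CPM in CCI and 2707 to 2928 CPM in sham libraries. The 13 mitochondrially encoded genes had a median of -0.12 and the 20 ribosomal protein genes one of 0.11, with none called. Choroid plexus and meningeal fibroblast genes had medians of -0.23 and -0.21 and no called gene. The stress hormone target Fkbp5 and the clock gene Per1 had log2 fold changes of -0.06 and -0.21 (edgeR adjusted p = 0.971 and 0.511). The authors' deposited DESeq2 table gives them log2 estimates further from 0, -1.06 and -1.15 (DESeq2 adjusted p there 0.131 and 0.0981).

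Most genes that changed contralaterally also changed in the same direction on the side of impact, and by more. In the ipsilateral hemisphere of the 13-library fit, 3352 of 14875 genes were called (22.5%), 1859 higher (12.5%) and 1493 lower (10.0%). Both comparisons are of CCI with sham and share animals, so their values are set side by side and no correlation is drawn. Of the 37 genes that rose contralaterally, 35 also rose ipsilaterally (94.6% of them and 1.88% of the ipsilateral list), with median log2 fold changes of 0.83 contralaterally and 2.13 ipsilaterally. Serpina3n rose 14.2-fold ipsilaterally, against 3.41-fold contralaterally, and Gpnmb 52.3-fold against 2.81-fold. The difference between the 2 effects was called for 1165 genes (7.83%), among them 25 of the 37 with the larger rise ipsilaterally. For A2m it was 2.93 on the log2 scale (edgeR adjusted p = 2.8e-08), for Gfap 1.5 (0.0434) and for Cd68 2.35 (9.22e-07).

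As a share of the ipsilateral difference in CPM, the contralateral difference ran from 3.18% for Gpnmb to 71.3% for Slc25a18, a mitochondrial glutamate carrier, with a median of 20.3% over 35 genes. The contralateral call of Slc25a18 (edgeR adjusted p = 0.0499) ended without any 1 library except CCI animal 1 (0.0963 to 0.229). It was 27.8% for Gfap, 17.9% for Serpina3n, 10.7% for A2m and 53.5% for Lag3. Lyz2, which was called ipsilaterally and not contralaterally, stood at 2.70%. Gm15542 and Gucy1a2 rose contralaterally and not ipsilaterally, where their log2 fold changes were -0.29 and -0.44, and the difference was called for both (edgeR adjusted p = 0.0349 and 0.0220). Of the 8 genes that fell, 5 also fell ipsilaterally (62.5% of them and 0.335% of the ipsilateral list). Slc17a6 had an ipsilateral log2 fold change of -0.11 that was not called. Peg10 and Gm6863 went the other way ipsilaterally, with log2 fold changes of 0.35 and 2.40, and the difference was called for both (edgeR adjusted p = 0.000729 and 0.00196). The Gm6863 values are near the floor, with 6, 26, 8 and 15 counts in CCI ipsilateral and 0 and 4 in sham ipsilateral libraries.

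**Figure D5:**
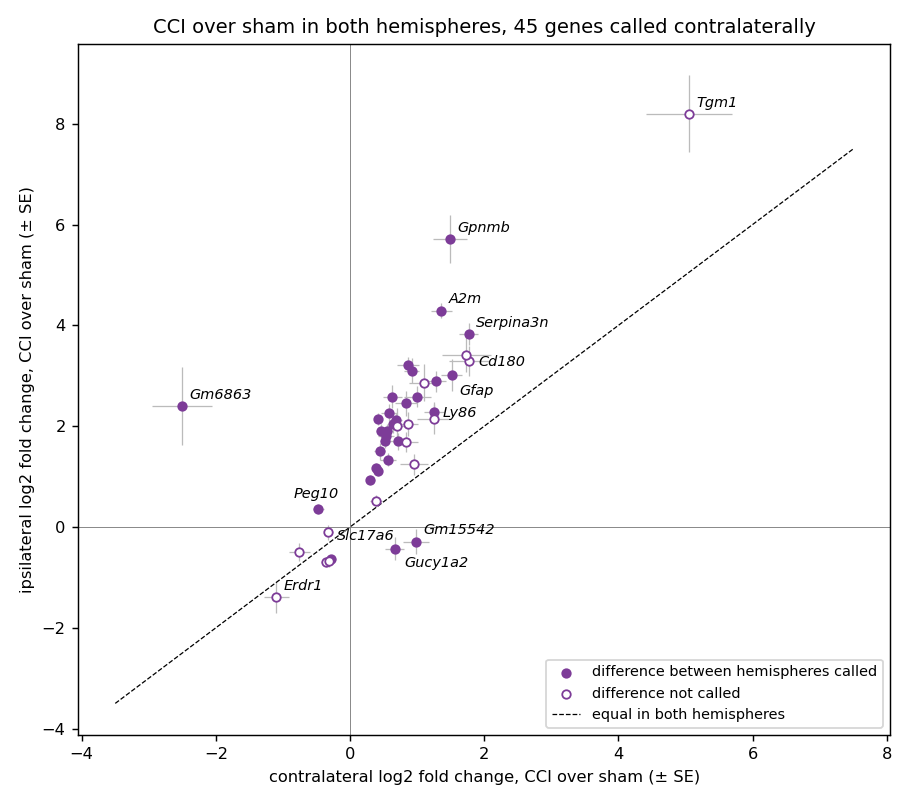
Log2 fold change of CCI over sham in the ipsilateral (y axis) against the contralateral hemisphere (x axis) for the 45 genes called contralaterally, with SE bars; filled points have a called difference between hemispheres and the dashed line marks equal change. Most genes that rose lie above the line, while Gm15542, Gucy1a2, Peg10 and Gm6863 have opposite signs in the 2 hemispheres.

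In interferon-stimulated genes the hemispheres differed in how many members were called. Ipsilaterally 32 of 36 tested rose with a median of 1.57, against 1 of 31 contralaterally with a median of 0.22. Over all genes tested, 12.5% rose ipsilaterally and 0.263% contralaterally. The ipsilateral count is from the 13-library fit and the contralateral one from the 7-library fit; in the 13-library fit none of the 14 contralateral calls was an interferon-stimulated gene. For 11 of the genes the difference between hemispheres was itself called, against 7.83% of all genes. Isg15 had an ipsilateral log2 fold change of 2.19, and its difference from the contralateral change was 2.21 (edgeR adjusted p = 0.00476). Ifit3 had 2.01 ipsilaterally, and its difference of 1.31 was not called (edgeR adjusted p = 0.173). Immediate early genes were likewise called in 17 of 18 members ipsilaterally, all lower, and in none contralaterally, with the difference called for 10. Over all genes, 10.0% were lower ipsilaterally and 0.0568% contralaterally. No contralateral call among 18 genes is therefore near the share over all genes.

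The headers of the authors' deposited table name treatment, hemisphere and time, and do not say which libraries its model held. The edgeR values here come from the 7 contralateral libraries, so the models differ and the libraries may differ. At an adjusted p of its own under 0.05, the authors' deposited table has 28 genes up and 5 down for the contralateral side. Of these 33 genes, 21 were among the 45 called here, led in the authors' deposited table by Ly86, Mpeg1, A2m, Gfap and Cd180. All 21 were higher in both. Apod and Ctsl, called here, are given log2 estimates of -0.01 and 0.08 in the authors' deposited table (adjusted p there 0.992 and 0.913), against 0.42 and 0.39 by edgeR. Sgk1 and Nfkbia, called in neither, have estimates of opposite sign, -0.92 and -0.96 in the authors' deposited table against 0.49 and 0.37 by edgeR. None of the 5 genes lower in the authors' deposited table was called here. For 4 of them the authors' deposited table gives an estimate much further from 0 than the deposited counts. Cdkn1a, an inhibitor of the cell cycle, is given a log2 estimate of -2.78 in the authors' deposited table. Its counts were 89, 133, 83 and 87 in CCI libraries and 107, 108 and 127 in sham libraries, a log2 fold change of -0.24 by edgeR.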

How the data were processed

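Members, gene lists and alternatives were chosen with earlier results of these data known. The deposited expected counts are RSEM estimates for each gene, per the submitters' processing notes, without normalization. TPM were deposited too and served in an alternative. Another deposited table holds the authors' DESeq2 comparisons, with a log2 estimate, a signed fold change as a score, and a raw and an adjusted p-value, per the file headers. The notes name bcl2fastq, RSEM, DESeq2 and GRCm38 (mm10). The aligner and tool versions were not given in the sources used here, nor was the strand setting of the counting, although the library kit is stranded.

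Of the expected counts 9.76% were not whole, and all were rounded. Genes were tested with edgeR, by quasi-likelihood (version 4.0.16, R 4.3.3, robust, TMM scaling, group-wise filter on low counts) on the 7 contralateral libraries, which kept 14088 of 43411 genes; every adjusted p is its Benjamini-Hochberg value over these unless another method is named. Each of the 7 libraries is a separate animal by its label. The running numbers that open the library names fall in separate ranges for CCI and sham and for the hemispheres; their meaning is not given in the labels, so any order they record cannot be told apart from surgery or side. The ipsilateral and difference values came from 1 edgeR model of 4 group means over 13 libraries (14875 genes). SE was derived from each log2 change and its F statistic, and is approximate. CPM are TMM-scaled. Alternatives used limma 3.58.1 and DESeq2 1.42.0.

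Between replicates, chi-square per degree of freedom was 2 to 3.04, so no library was counted as a duplicate. CCI and sham animals share no number, and each contralateral library is the only one of its animal, so the contralateral comparison has no paired form. Between the hemispheres of 6 animals, deviations from group means correlated at 0.00348 to 0.0882, and the pairing comes from the animal label.

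Genes were named by a rule: the 12 smallest p in each direction among called genes whose groups do not overlap, the gene with the smallest p in each of 48 lists, and a fixed set of marker genes; further genes were named after their values were seen. Some genes under the rule are not reported here. Of 668 list genes, 546 were tested. Gene positions (GRCm38) came from GENCODE M21, in which 98.9% of the identifiers were found.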

Additional observations from a re-analysis of the deposited data

Results flagged for a closer look

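The change from sham to CCI differed between hemispheres, by edgeR's test of the difference at an adjusted p under 0.05, for 43 of the 83 named genes that were tested. Over all 14875 genes the share was 7.83%. The named genes were picked by small contralateral p or as fixed markers, so their share describes that choice. The values given next are ipsilateral minus contralateral log2 fold changes. Among genes called contralaterally the difference was positive for A2m 2.93, Serpina3n 2.06, Ly86 1.04, Ctss 1.41, Apod 0.69, Mpeg1 2.19, Ctsd 1.73, C1qa 1.45, Cd9 1.18, Grn 1.43, Ctsl 0.79, Peg10 0.82, Gm6863 4.91, C4b 1.61, Cd68 2.35 and Gfap 1.5. It was negative for Cyp51 at -0.36. The Gm6863 value rests on few counts, with 0 and 4 in the sham ipsilateral libraries. Among named genes not called contralaterally it was positive for Pomc 2.14, B2m 0.95, C3 3.08, Tagln 1.35, Aif1 1.42, Aqp4 1.13, Trf 0.66, Ccdc153 1.61, Lyz2 4.52, Irf8 1.70, Gal 2.09, Cd74 1.88 and Isg15 2.21. It was negative for Egr4 -1.08, Nr4a1 -1.27, Egr2 -1.59, Cck -0.58, Cx3cl1 -0.44, Ina -0.37, Egr1 -1.13, Npas4 -1.01, Rgs9 -0.41, Fos -0.92, Bdnf -0.71, Arc -1.30 and Snap25 -0.48.

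In 8 of 133 quantities examined within the 4 CCI libraries, 1 library stood apart from the other 3, by a gap over range above Dixon's 95% critical value. Chance gives this in about 1 of 20 groups. CCI animal 3 was high for Aif1, an actin-binding protein of microglia (0.845), and for the mean of the phagocytosis and lysosome list (0.885), and low for the mean of later activity-regulated genes (0.95). CCI animal 1 was high for the mean of heat shock genes (0.847), and low for the mean of skeletal muscle genes (0.843), of which 1 passed the filter on low counts. CCI animal 5 was low for Gm6863, at 0 counts (0.914), and high for the cholinergic gene Chat (0.851). CCI animal 2 was high for the glutamate receptor subunit Grin2a (0.83).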

How the results depend on the processing

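The 45 contralateral calls (37 higher, 8 lower) all kept their direction in the 15 alternatives run, and 3 genes, A2m, Serpina3n and Ly86, kept their call in each. The fit of 13 libraries called 14 (12 and 2), all among the 45. With the animal as a random effect (replicate block) in limma voom over 13 libraries, 5 were called (5 and 0): A2m, Gfap, Serpina3n, Ly86 and C4b. In that fit 1036 genes had an unadjusted p under 0.05. Limma voom without a block called 24 higher and 6 lower, and DESeq2 31 and 7, with 27 shared. No filter on low counts gave 132 (81 and 51). Limma on log2(TPM + 1) called 21 (20 and 1) and on log2(TPM + 0.1) 19 (19 and 0), where 1008 genes had an unadjusted p under 0.05. Leaving out 1 library gave 20 to 58 calls, with 17 to 40 higher and 3 to 23 lower. The low ends were without sham animal 4. Without sham animal 8 there were 5 lower, and without CCI animal 5 the higher and lower genes numbered 35 and 23. The count of genes whose change differed between hemispheres was 393 to 1457 when 1 library was left out, against 1165, and the ipsilateral count 1675 to 3405, against 3352. Both low ends were without sham ipsilateral animal 6, which leaves 1 library in that group, assumed to vary like the others. With the animal as a fixed replicate block the count of differences was 1343. Between hemispheres of an animal, limma estimated a correlation of 0.155. All 18 lists with a median of at least 0.2 either way kept its sign in every alternative. With 5604856 to 7444568 counts per library, genes such as Ccr2 had too few counts to pass the filter of the main fit. The authors' deposited table gives Ccr2 a log2 estimate of 1.11 (DESeq2 adjusted p there 0.532). Causes were not tested.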

Other observations

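Cerebellar transcripts were unevenly present in the contralateral libraries. Gabra6, a receptor subunit of cerebellar granule cells, had 32 counts in CCI animal 3 and 0 in the other 6 libraries. Pcp2, a marker of Purkinje cells, had 7, 0, 17 and 0 counts in the CCI libraries of animals 1, 2, 3 and 5, against 0, 2 and 0 in the sham libraries of animals 4, 6 and 8.

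The genomic stretches listed at 0 in all 13 libraries run over chromosome 1, 115684756 to 136531511 (155 protein-coding genes) and 143598800 to 163725232 (115 genes), and chromosome 2, 3114224 to 22940266 (91 genes), on GRCm38. No other stretch of neighbouring genes at 0 on an autosome was longer than 4.0 megabases. Of the genes in the lists, 9 lie there: Btg2, C1ql2, Tmem163, Glul, Ptgs2, Rgs16, Gad2, Mrc1 and Vim. Since several of these are abundant in brain, a value of 0 there is not read as absence of expression.

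Further estimates in the authors' deposited table lay far from the deposited counts. Map3k6 is given a log2 estimate of -2.36 in the authors' deposited table, against counts of 17, 12, 16 and 12 in CCI and 22, 24 and 26 in sham libraries. Dennd3 is given -1.98 in the authors' deposited table, against 58, 46, 67 and 52 counts in CCI and 65, 54 and 54 in sham libraries. Gm12918 is given 18.4 in the authors' deposited table, with 37 counts in CCI animal 5 and 0 in the other 6 libraries.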
